A study of Mus musculus with 6 samples.

Results

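The genes that make cholesterol and fatty acids, together with those that sense and export sterols, were examined in germinal center (GC) and naive B cells by RNA-Seq, in mouse Peyer's patches. The members were 31 listed genes, found in the expression table by matching each symbol or its synonyms to an Ensembl gene identifier. A value was obtained for 30 of the 31 members, out of 39179 identifiers in the table, of which 33398 carried a symbol; Hmgcs1 was not analysed here. All 30 passed the filter on low values described below. GC B cells are B cells that divide and mutate their antibody genes inside lymphoid follicles, and here they were sorted as Fas+GL7+ B cells. The naive population, which the study also calls resting, was sorted as Fas-GL7- B cells. Both were taken from the Peyer's patches of the ileum, which are follicle clusters in the gut wall, in female C57BL/6 mice that were wild-type littermates aged 12 weeks, with no treatment named. Each population was measured in 3 samples, each pooled from 5 mice, so the spread between samples is one between pools and single mice were not resolved.

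Cholesterol is built from acetyl-CoA through mevalonate, farnesyl diphosphate, squalene and lanosterol, and mevalonate also feeds the isoprenoid branch that makes dolichol, ubiquinone and the lipid anchors of small GTPases. When membrane sterol is low, SCAP escorts the SREBP transcription factors out of the endoplasmic reticulum, from which INSIG proteins otherwise do not let them leave, and the cleaved factors switch on genes of sterol and fatty acid synthesis. When sterols are abundant, oxysterols activate LXR nuclear receptors, which switch on the transporters ABCA1 and ABCG1 that move cholesterol out of the cell. Dividing lymphocytes need both lipids for new membrane.

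Expression was given as TPM (transcripts per 1000000, a level corrected for transcript length), obtained from the deposited FPKM. Differences were tested with limma on log2(TPM + 1) over the 12785 genes that reached 1 TPM in 3 or more pools, and a gene was called at a Benjamini-Hochberg adjusted p under 0.05. A log2 fold change is GC minus naive on the log2(TPM + 1) scale, which understates the change of genes with low levels. The sequencing depth, estimated from the steps between low values and therefore approximate, lay between 9500000 and 16300000 reads per pool. The labels matched the cells. The B cell markers Pax5 and Cd79a had between 175 and 2402 TPM in every pool. The 6 GC markers had a sum of 1410 to 1438 TPM in GC pools and of 51.6 to 57.5 TPM in naive pools, and the 5 naive markers one of 122 to 132 TPM in GC pools and of 1669 to 1737 TPM in naive pools. Fas, used for the sort, is among the former. T cell markers (5 genes) summed to at most 3.51 TPM in any pool. Epithelial markers (11 genes, none at 0 in any pool) were present and uneven. They summed to 77.3, 201 and 85.3 TPM in GC replicates 1 to 3 and to 259, 195 and 192 TPM in the naive replicates, and of the 10 that were tested 5 were lower and 1 was higher in GC. The sum of GC replicate 2 thus stood at the level of the naive pools, with its largest parts from Fabp2 (65.4 TPM) and Apoa1 (53.8 TPM). In that replicate Epcam, Krt8, Krt19, Krt20 and Vil1 were below every naive pool, and the other epithelial markers were within or above the naive range. Without GC replicate 2, 9 members were called higher and 10 lower, the counts found with all pools. The GC pools left were those with epithelial sums below every naive pool, so these counts do not test the part of epithelial cells. RNA of a whole sorted population was measured, so a gene used by fewer of the cells and a gene with less RNA in each cell cannot be told apart.

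Of the 30 members, 19 were called, 9 higher and 10 lower in GC B cells. This share was close to that of all genes tested, of which 65.6% were called, 35.5% higher and 30.1% lower in GC. The median log2 fold change of the members was -0.01, beside 0.03 for all genes tested, and their median absolute log2 fold change was 0.50, beside 0.54. A log2 fold change of at least 1 was reached by 2 called members, Acat2 and Elovl6 (14.2% of all genes), and one of -1 or less by 3, Scd1, Abca1 and Abcg1 (11.2% of all genes). The ranges of the GC and naive pools did not overlap for 19 members, beside 70.7% of all genes tested. The members therefore stood at the background of the comparison as one list. The genes of the mevalonate and sterol steps, 16 of the 30 members, included 7 of the 9 higher calls, with 2 lower calls (Mvk and Ebp). Of the 7, 4 were among the 6 mevalonate genes and 3 among the 10 squalene and sterol genes, beside 35.5% higher of all genes. The 7 of 16 were near that share. The genes of SREBP control gave 3 lower calls among 4 genes and those of LXR and efflux 3 among 3, beside 30.1% lower of all genes. Neither group had a higher call, and both are small.

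**Figure D1:**
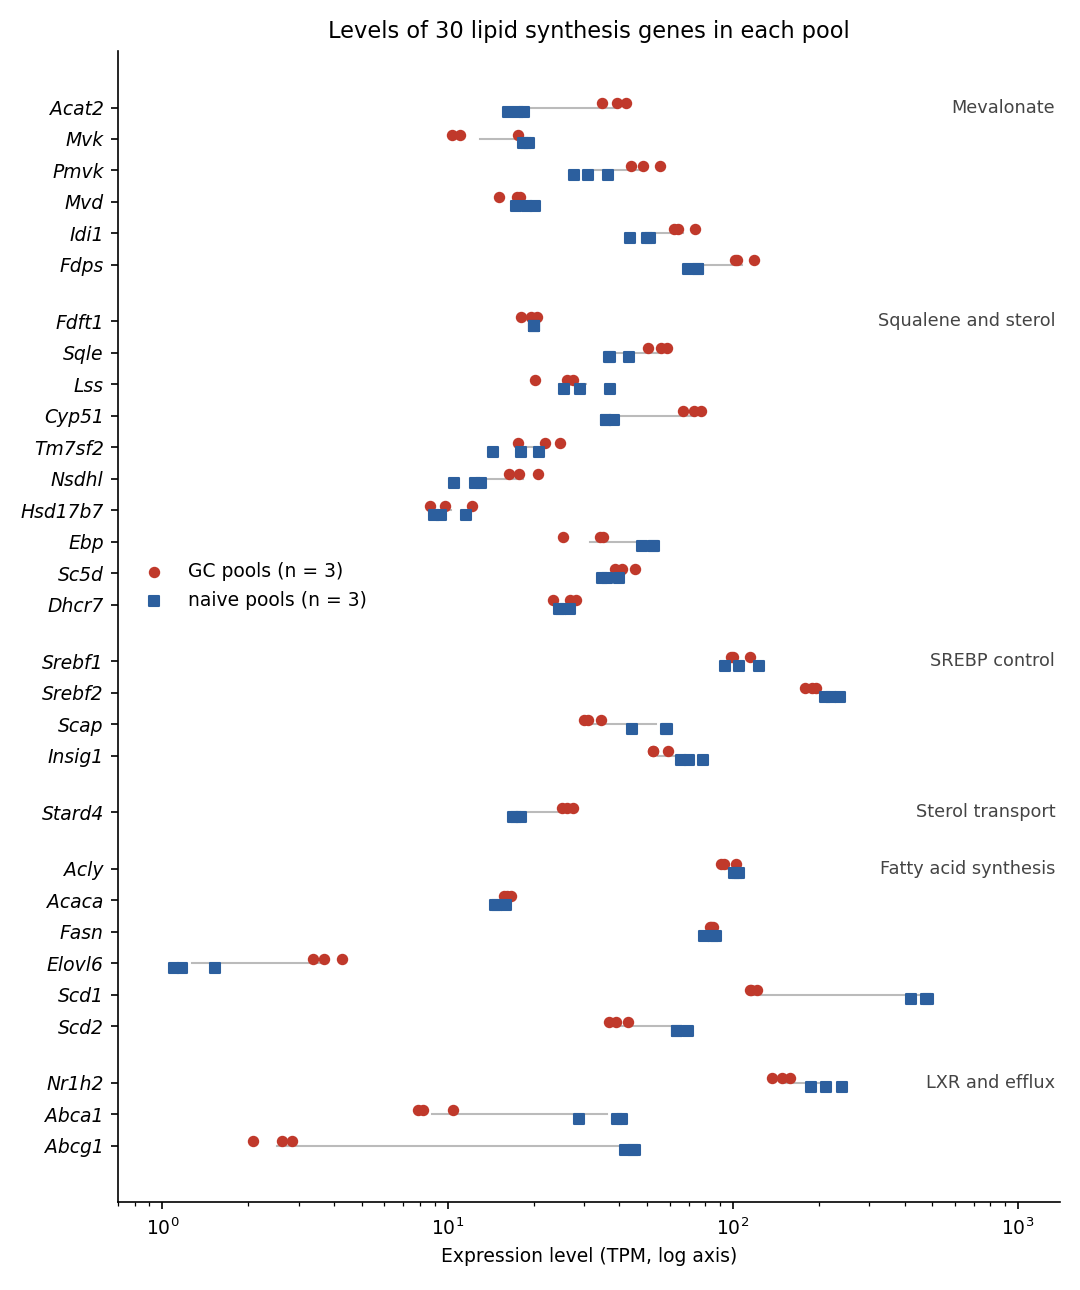
Levels of the 30 members in each pool, in TPM on a log axis, with GC pools as red circles and naive pools as blue squares (3 each) and a grey line joining the group means, grouped by role. The pools of Abcg1 lie farthest apart, at most 2.85 TPM in GC pools and at least 41.9 TPM in naive pools, while those of Fasn fall on each other.

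**Figure D2:**
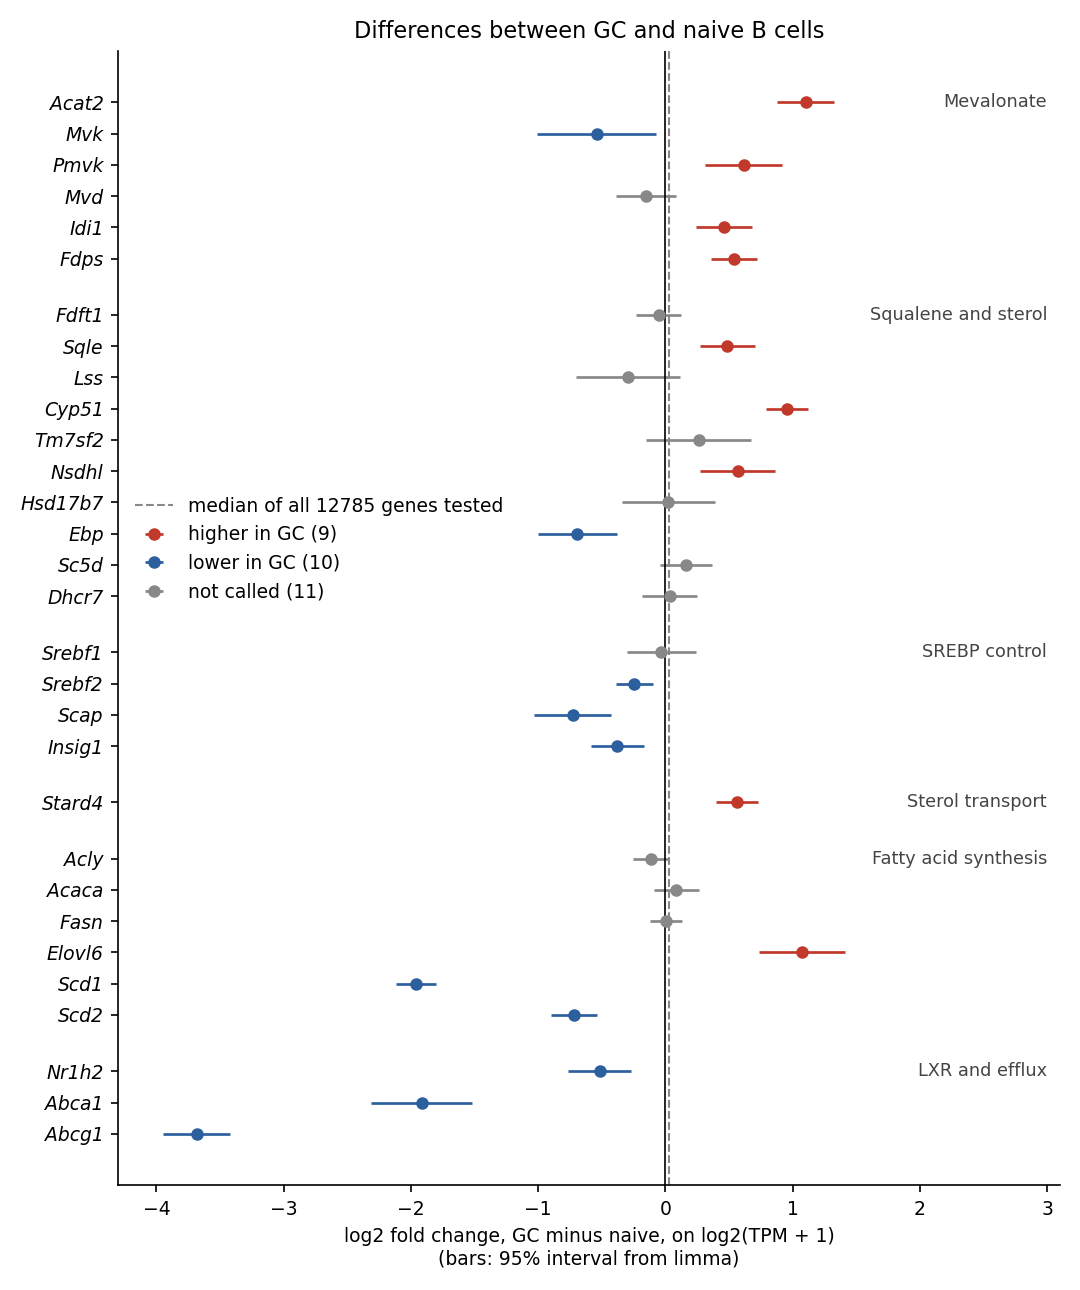
Log2 fold change of each member, GC minus naive on log2(TPM + 1), with 95% intervals from limma, in red where called higher in GC (9), in blue where called lower (10) and in grey where not called (11). The dashed line marks the median of all 12785 genes tested, 0.03.

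Promoters were compared because SREBPs bind the sterol regulatory element, a short DNA motif. RefSeq start sites on GRCm38.p6 gave 29 promoters for 23 of the members, each from 250 bases before to 50 bases after the start site. The element in its full form, TCACNCCAC on either strand, was in none of them and in 1.24% of 32851 promoters in all. Shortened by its last base to TCACNCCA, it was found in 1 member promoter, that of Srebf2 (4.36% of all promoters), and shortened by its first base to CACNCCAC, in 2, those of Acat2 and Insig1 (6.24%). A relaxed form, TCACNNCA, which also covers every match of TCACNCCA, was in 8 of the 29 promoters, beside 13.8% of all promoters, and these belonged to 7 members, Cyp51, Dhcr7, Hsd17b7, Nsdhl, Pmvk, Sc5d and Srebf2. Of other motifs searched on both strands, the E-box CACGTG was in 7 of the 29 promoters (7.15% of all promoters), CCAAT in 18 (37.4%) and the GC box GGGCGG in 21 (35.7%). These promoters belonged to 6, 17 and 18 of the 23 members. Some members have more than 1 promoter, and those of Scap overlap and hold the same E-box. These counts describe letters in these windows and not binding. The promoters of the 4 members with a relaxed match and the largest differences between GC and naive B cells are shown 5′ to 3′ on the gene's strand, in lower case with each match of TCACNNCA, or of its reverse complement, in capitals. Those of Cyp51, Pmvk and Nsdhl belong to genes that were higher in GC B cells and that of Srebf2 to a gene that was lower. They lie at chr5:4104648-4104947 (minus strand) for Cyp51, chr3:89454291-89454590 (plus strand) for 1 of the 2 start sites of Pmvk, chrX:72918271-72918570 (plus strand) for Nsdhl and chr15:82147019-82147318 (plus strand) for Srebf2.
Cyp51: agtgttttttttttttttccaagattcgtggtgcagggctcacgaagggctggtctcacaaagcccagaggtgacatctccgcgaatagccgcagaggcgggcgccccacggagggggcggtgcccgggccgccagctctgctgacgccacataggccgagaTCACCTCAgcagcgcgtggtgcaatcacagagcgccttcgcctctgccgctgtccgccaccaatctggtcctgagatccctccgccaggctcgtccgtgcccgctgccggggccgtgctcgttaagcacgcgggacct
Pmvk: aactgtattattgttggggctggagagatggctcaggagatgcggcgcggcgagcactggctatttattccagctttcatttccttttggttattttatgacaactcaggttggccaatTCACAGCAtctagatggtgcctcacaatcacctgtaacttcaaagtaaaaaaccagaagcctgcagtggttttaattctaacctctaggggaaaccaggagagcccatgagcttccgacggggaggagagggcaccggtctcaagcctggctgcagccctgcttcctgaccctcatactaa
Nsdhl: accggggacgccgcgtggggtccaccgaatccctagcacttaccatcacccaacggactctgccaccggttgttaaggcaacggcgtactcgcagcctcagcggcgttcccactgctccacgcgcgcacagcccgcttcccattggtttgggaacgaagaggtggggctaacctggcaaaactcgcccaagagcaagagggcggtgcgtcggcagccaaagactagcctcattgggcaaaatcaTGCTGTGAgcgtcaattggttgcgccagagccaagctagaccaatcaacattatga
Srebf2: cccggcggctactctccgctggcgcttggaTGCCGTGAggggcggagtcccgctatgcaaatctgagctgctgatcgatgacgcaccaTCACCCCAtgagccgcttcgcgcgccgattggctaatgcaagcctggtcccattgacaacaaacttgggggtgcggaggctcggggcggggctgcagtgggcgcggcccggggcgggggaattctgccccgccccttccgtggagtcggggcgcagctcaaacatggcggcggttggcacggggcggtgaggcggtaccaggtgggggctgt
Counted from the start site as base 1, the matches ran from -88 to -81 in Cyp51, from -131 to -124 in Pmvk, from -6 to 2 in Nsdhl on the minus strand, and in Srebf2 from -162 to -155 and, on the minus strand, from -220 to -213.

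Mevalonate steps came first in the path, and 4 of the 6 genes measured rose in GC B cells. Their summed level was 292 ± 28.5 TPM (SD, n = 3) in GC and 209 ± 12.9 TPM in naive pools, a ratio of 1.40. Acat2, which joins acetyl-CoA units into acetoacetyl-CoA (chr17:12943042-12960725 in GRCm38.p6), had 39.2, 42.3 and 34.7 TPM in the GC pools and 17.7, 18.5 and 16.3 TPM in the naive pools. Every GC pool was above every naive pool, and Acat2 rose 2.22-fold (log2 fold change 1.10, SE 0.09, adjusted p = 8.43e-05 in limma). The value carries a limit of counting, since 45.9% of the 50-base words of the Acat2 transcript also occur in another gene, most of them in Acat3, which itself had at most 2.24 TPM in any pool. Idi1, which isomerizes isopentenyl diphosphate, rose from 48.2 ± 4.23 to 66.7 ± 5.89 TPM (log2 fold change 0.46, adjusted p = 0.00453). Fdps, which makes farnesyl diphosphate, the branch point between sterols and isoprenoids, rose from 73.5 ± 3.23 to 108 ± 9.26 TPM (0.54, adjusted p = 0.000774). Pmvk, the kinase that acts on phosphomevalonate and whose promoter is shown above, rose from 31.8 ± 4.40 to 49.2 ± 5.72 TPM (0.62, adjusted p = 0.00482).

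The remaining 2 genes of the mevalonate steps did not rise. Mvk, the kinase that phosphorylates mevalonate, had 11.0, 17.7 and 10.3 TPM in GC and 18.8, 18.4 and 19.3 TPM in naive pools. Its GC pools lay below its naive pools, but GC replicate 2 came within 1 TPM of them, and the coefficient of variation in GC, 31.2%, was the largest of any member in either population. Mvk fell with a log2 fold change of -0.54 (SE 0.19, adjusted p = 0.0456 in limma), a call that was kept in 8 of 16 alternative analyses, with an adjusted p of up to 0.129. Leaving out GC replicate 1 or 3, or any one of the naive pools, ended it. Mvd, the decarboxylase that follows, had 16.9 ± 1.54 TPM in GC pools and 18.8 ± 1.43 TPM in naive pools and was not called (log2 fold change -0.15, 95% interval -0.39 to 0.09).

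From squalene to cholesterol, 3 of 10 genes rose, 1 fell and 6 were not called, and the summed level was 321 ± 20.2 TPM in GC and 280 ± 20.1 TPM in naive pools. Cyp51, the lanosterol demethylase (chr5:4080674-4104697), had 66.9, 73.0 and 77.1 TPM in GC and 35.8, 38.3 and 35.9 TPM in naive pools. Each GC pool was well above each naive pool, with a 1.97-fold difference (log2 fold change 0.96, SE 0.07, adjusted p = 3.86e-05 in limma). Sqle, the squalene epoxidase and a control point of the path, rose from 39.0 ± 3.69 to 55.1 ± 4.18 TPM (0.49, adjusted p = 0.00317). Nsdhl, which takes part in removing the methyl groups of lanosterol, rose from 12.0 ± 1.35 to 18.3 ± 2.23 TPM (0.57, adjusted p = 0.00631). Ebp, the sterol isomerase, moved the other way. It fell from 51.1 ± 2.70 to 31.5 ± 5.34 TPM (-0.69, adjusted p = 0.00331), and its GC pools, between 25.4 and 35.1 TPM, stayed below its naive pools, between 48.0 and 53.0 TPM.

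The 6 genes of these steps that were not called were Fdft1, which makes squalene, the cyclase gene Lss, and Tm7sf2, Hsd17b7, Sc5d and Dhcr7, which carry out later reductions and desaturations of the sterol rings. Their log2 fold changes ran from -0.30 in Lss (95% interval -0.70 to 0.11) to 0.26 in Tm7sf2 (-0.15 to 0.67), and the pools of both populations overlapped for all 6. Fdft1 had a narrow interval, at 19.4 ± 1.29 TPM in GC and 20.1 ± 0.0576 TPM in naive pools (-0.05, -0.23 to 0.13), although 26.9% of its exon bases are also exon of Ctsb on the opposite strand and the sources used here do not state whether strand was kept. The same limit applies to 18.9% of the exon bases of Scap, opposite 5830462I19Rik. In Tm7sf2, 15.3% of the exon bases are shared with 1110014N23Rik on the same strand. Stard4, which carries cholesterol between membranes inside the cell, rose from 17.5 ± 0.511 to 26.3 ± 1.25 TPM (0.56, adjusted p = 0.000432 in limma).

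Of the 4 genes that control SREBP activity none rose and 3 fell, and their sum was 379 ± 16.5 TPM in GC pools and 456 ± 37.2 TPM in naive pools. Srebf2, the SREBP gene known mainly for sterol synthesis (chr15:82147269-82205379, with the promoter shown above), had 179.5, 195.2 and 190.0 TPM in GC and 221.4, 238.0 and 209.8 TPM in naive pools. The naive pools were all above the GC pools, by a small margin, and Srebf2 fell with a log2 fold change of -0.24 (SE 0.06, adjusted p = 0.0117 in limma). Insig1, which retains SCAP in the endoplasmic reticulum and is itself an SREBP target, had 52.3, 59.4 and 52.6 TPM in GC and 65.9, 78.5 and 70.1 TPM in naive pools. Insig1 therefore also fell without overlap between the populations (-0.38, SE 0.09, adjusted p = 0.00784). Scap fell from 53.8 ± 8.29 to 31.8 ± 2.33 TPM, the largest difference of the 4 (-0.73, adjusted p = 0.0022). Srebf1, which in many tissues acts more on fatty acid synthesis, had 98.8, 99.7 and 115.1 TPM in GC and 93.9, 123.0 and 104.8 TPM in naive pools. The naive range of Srebf1 contained all GC pools, and it was not called (-0.03, 95% interval -0.30 to 0.24). These are RNA levels, and the cleavage that activates SREBP proteins was not measured.

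Fatty acid synthesis divided between the steps that build palmitate, which did not pass the test, and the steps that lengthen or desaturate it, which did. Fasn, the fatty acid synthase, had 83.1, 84.0 and 85.4 TPM in GC and 87.3, 85.2 and 79.0 TPM in naive pools. The naive pools spanned the GC pools, and Fasn was not called (log2 fold change 0.01, 95% interval -0.12 to 0.13), with a sign that turned under the 3 other units or scalings tried. Acaca, the acetyl-CoA carboxylase of the cytosol, had 16.2 ± 0.452 TPM in GC and 15.2 ± 0.737 TPM in naive pools (0.09, -0.09 to 0.26). Acly, which supplies cytosolic acetyl-CoA from citrate, had 95.4 ± 6.40 TPM in GC and 103 ± 1.92 TPM in naive pools (-0.11, -0.26 to 0.03). Acly became a lower call under the same 3 alternatives and without GC replicate 3, with a log2 fold change of -0.17 in the last case (adjusted p = 0.0364 in limma).

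Among the genes that modify palmitate, Elovl6, an elongase of saturated chains (chr3:129532386-129638495), had 3.68, 4.25 and 3.36 TPM in GC and 1.09, 1.53 and 1.18 TPM in naive pools. The levels were low in both populations, and the GC pools were all higher, 2.97-fold on average (log2 fold change 1.07, SE 0.14, adjusted p = 0.000639 in limma). With a pseudocount of 0.1 its log2 fold change was 1.51. Scd1, the desaturase that makes oleate from stearate (chr19:44394450-44407709), had 115.7, 122.0 and 114.5 TPM in GC and 475.2, 484.2 and 421.2 TPM in naive pools. Scd1 was the most abundant member in naive B cells, above 97.9% of the genes tested, and was 3.92-fold lower in GC B cells (-1.96, SE 0.06, adjusted p = 1.22e-06). The related Scd3, which shares sequence with it, was listed at no more than 0.164 TPM. Scd2, a desaturase of the same family, fell from 65.6 ± 3.34 to 39.5 ± 3.14 TPM (-0.72, adjusted p = 0.000222). Summed over the 6 genes of fatty acid synthesis, the level was 356 ± 7.53 TPM in GC and 729 ± 41.4 TPM in naive pools. Scd1 alone accounted for 32.9% of this sum in GC and 63.1% in naive B cells, and the other 5 genes summed to 239 ± 7.45 TPM in GC and 269 ± 7.52 TPM in naive pools.

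**Figure D3:**
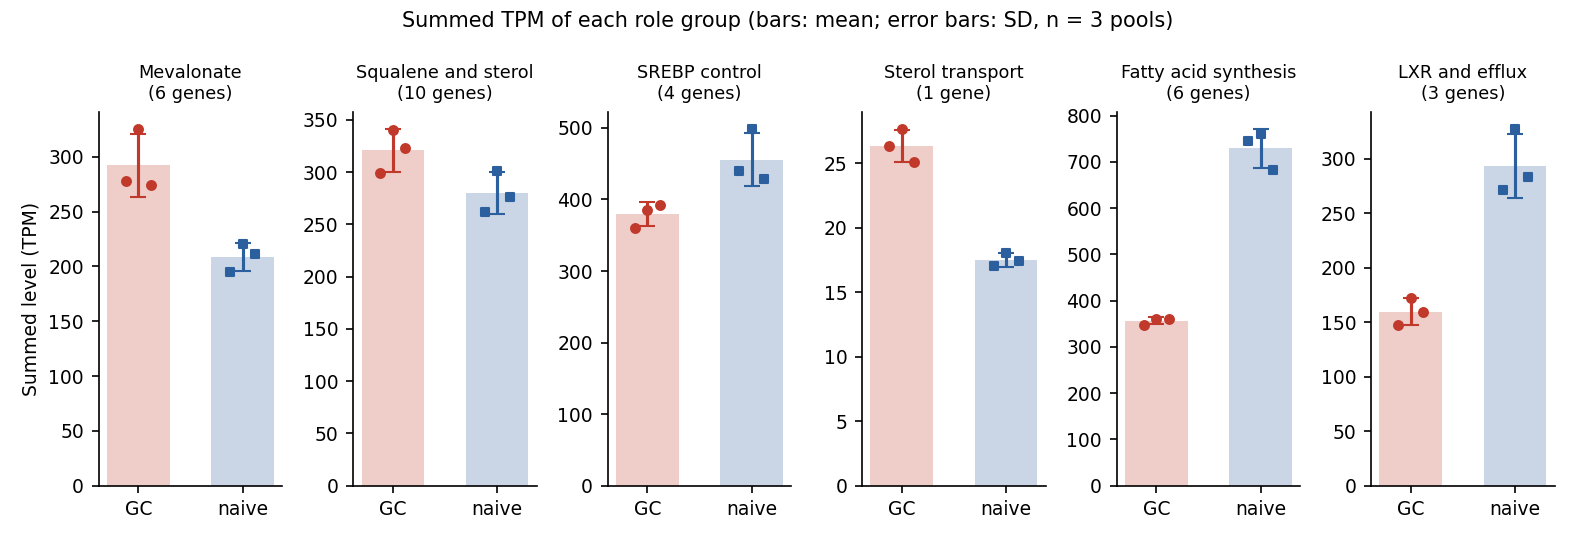
Summed level in TPM of the members in each role group, as the mean of 3 pools (bars) with the SD (error bars) and each pool as a point, on separate axes that start at 0. The mevalonate sum was 1.40 times as high in GC as in naive B cells, and the fatty acid sum, in which Scd1 has the largest part in naive pools, was 0.489 times as high.

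The genes of LXR and sterol export all fell, and Abcg1 had the largest log2 fold change of the 30 members. Abcg1, which exports cholesterol to lipoprotein particles (chr17:31057694-31117984), had 2.63, 2.85 and 2.08 TPM in GC and 44.8, 45.5 and 41.9 TPM in naive pools. The highest GC pool was far below the lowest naive pool, and the mean of Abcg1 was 17.5-fold lower in GC B cells (log2 fold change -3.68, SE 0.11, adjusted p = 8.19e-07 in limma). Among the 12785 genes tested, 111 fell at least as far (0.87%). Abca1, which loads cholesterol and phospholipid onto apolipoprotein A1 (chr4:53030789-53159988), had 7.87, 10.4 and 8.18 TPM in GC and 39.1, 40.8 and 28.8 TPM in naive pools. Naive replicate 3 was lowest of its group but remained above all GC pools, and Abca1 was 4.10-fold lower in GC (-1.92, SE 0.16, adjusted p = 9.06e-05). Nr1h2, the gene of LXR beta, a receptor through which oxysterols act on these transporters, fell by less, from 213 ± 26.8 to 148 ± 10.9 TPM (-0.52, adjusted p = 0.00432). Together Abca1 and Abcg1 summed to 11.4 ± 1.68 TPM in GC and 80.3 ± 8.40 TPM in naive pools.

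Macrophages and epithelium also use these transporters and Scd1, so the markers of both were set beside them. Myeloid markers (5 genes, of which Lyz2 alone passed the filter) summed to between 2.29 and 2.70 TPM in GC pools and between 4.89 and 7.87 TPM in naive pools, so their sum in every GC pool was below that in every naive pool. The macrophage markers Csf1r and Adgre1 reached at most 0.279 and 0.794 TPM, and Adgre1 was listed at 0 in 2 of the GC pools. Adgre1 had at least 0.633 TPM in naive pools. Itgam had 0.891 to 1.23 TPM in naive pools and at most 0.166 TPM in GC pools, while Csf1r and Itgax overlapped between the populations. GC replicate 2 had 122.0 TPM of Scd1, 10.4 TPM of Abca1 and 2.85 TPM of Abcg1, in each case the highest of the GC pools and below every naive pool. Its epithelial sum stood at the naive level, but its Epcam, Krt8, Krt19, Krt20 and Vil1 were also below every naive pool. Without GC replicate 2 the log2 fold changes were -1.99 in Scd1, -2.03 in Abca1 and -3.75 in Abcg1. The GC pools then left had epithelial sums below every naive pool, so these values do not test the part of epithelium. Plasma cell markers (4 genes, 2 higher and 2 lower in GC) summed to 684 to 720 TPM in GC and 106 to 124 TPM in naive pools, mainly from Jchain, and of the 5 markers of stroma and endothelium only Pecam1, which B cells also carry, exceeded 1.05 TPM in any pool. The part of these other cells in the differences of the members, Scd1, Abca1 and Abcg1 included, was not tested. GC B cells also expressed cell division genes. Proliferation genes, all 10 of which rose, summed to between 2424 and 2494 TPM in GC pools and between 184 and 189 TPM in naive pools, and their part in the differences described here was not tested.

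Other genes of the sterol pathway, from a list chosen with earlier results of these data known, changed in both directions. Of 16 tested among 17, 3 rose, 6 fell and 7 were not called, beside 35.5% higher and 30.1% lower of all genes tested. Erlin1, a lipid raft protein of the endoplasmic reticulum, rose with a log2 fold change of 1.04 (adjusted p = 0.00147 in limma), with 22.5, 33.6 and 32.0 TPM in GC and 15.0, 13.0 and 12.6 TPM in naive pools. The GC pools were all above the naive pools. Mylip, a ubiquitin ligase whose gene is an LXR target, fell by 2.31 on the log2 scale (adjusted p = 8.99e-07), from between 115.2 and 130.2 TPM in naive pools to between 23.0 and 25.2 TPM in GC pools. Npc2, which hands cholesterol out of the lysosome, fell by 1.76.

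The isoprenoid branch, which draws on the same mevalonate, had 5 of 11 genes higher and 3 lower in GC B cells. The shares of all genes tested were 35.5% higher and 30.1% lower. The highest adjusted p of the 5 higher calls was 0.0492 in limma, and 4 genes of the branch were called higher under each of the 3 other units or scalings tried. Pdss1, for the side chain of ubiquinone, and Pggt1b, for geranylgeranylation of proteins, both rose with a log2 fold change of 0.94, and Dhdds, for dolichol, with one of 0.63. Ggps1, the geranylgeranyl diphosphate synthase, fell by 0.88, Rce1 by 0.48 and Nus1 by 0.30. Of 4 oxysterol genes, Ch25h and Cyp7b1 were listed at 0 in all 6 pools and Hsd3b7 was not called, at 6.73 ± 2.22 TPM in GC and 5.18 ± 1.42 TPM in naive pools. Cyp27a1, which makes an oxysterol ligand of LXR, fell from 16.6 ± 1.51 to 4.56 ± 0.668 TPM (-1.66, adjusted p = 5.09e-05 in limma).

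Other fatty acid synthesis genes included Fads2, which had the largest log2 fold change in the 5 lists of lipid metabolism. Of 15 tested among 20, 5 rose, 4 fell and 6 were not called, beside 35.5% higher and 30.1% lower of all genes tested. Fads2, the first desaturase of polyunsaturated fatty acids, had 23.6, 28.8 and 22.3 TPM in GC and 0.594, 0.260 and 0.491 TPM in naive pools. Fads2 was thus under 1 TPM in every naive pool and above 22 TPM in every GC pool (log2 fold change 4.16, adjusted p = 1.73e-06 in limma). Fads1, the next desaturase of that path, had 9.37, 11.0 and 12.7 TPM in GC and 0.797, 0.849 and 0.529 TPM in naive pools (2.80, adjusted p = 1.04e-05). These 2 desaturases rose in the populations in which Scd1 and Scd2, the desaturases of monounsaturated chains, fell. Acsl5, which activates fatty acids with coenzyme A, rose with a log2 fold change of 0.75. Elovl5, an elongase of polyunsaturated chains, fell by 0.94, Acsl1 by 0.60 and Hacd3 by 0.50.

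Fatty acid oxidation, the opposite process, had 8 of 17 tested genes higher and 4 lower, with 5 not called. Among all genes tested, 35.5% were higher and 30.1% lower. The 18 genes of the list summed to 822 ± 17.8 TPM in GC and 635 ± 16.6 TPM in naive pools. Etfa and Etfb, which pass electrons from the oxidation enzymes to the respiratory chain, rose with log2 fold changes of 1.15 and 0.98, and Slc25a20, the carrier of acylcarnitines into mitochondria, with one of 0.79. Acadm, a dehydrogenase of medium-chain acyl-CoA, fell by 0.55 and Acaa2 by 0.47.

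**Figure D4:**
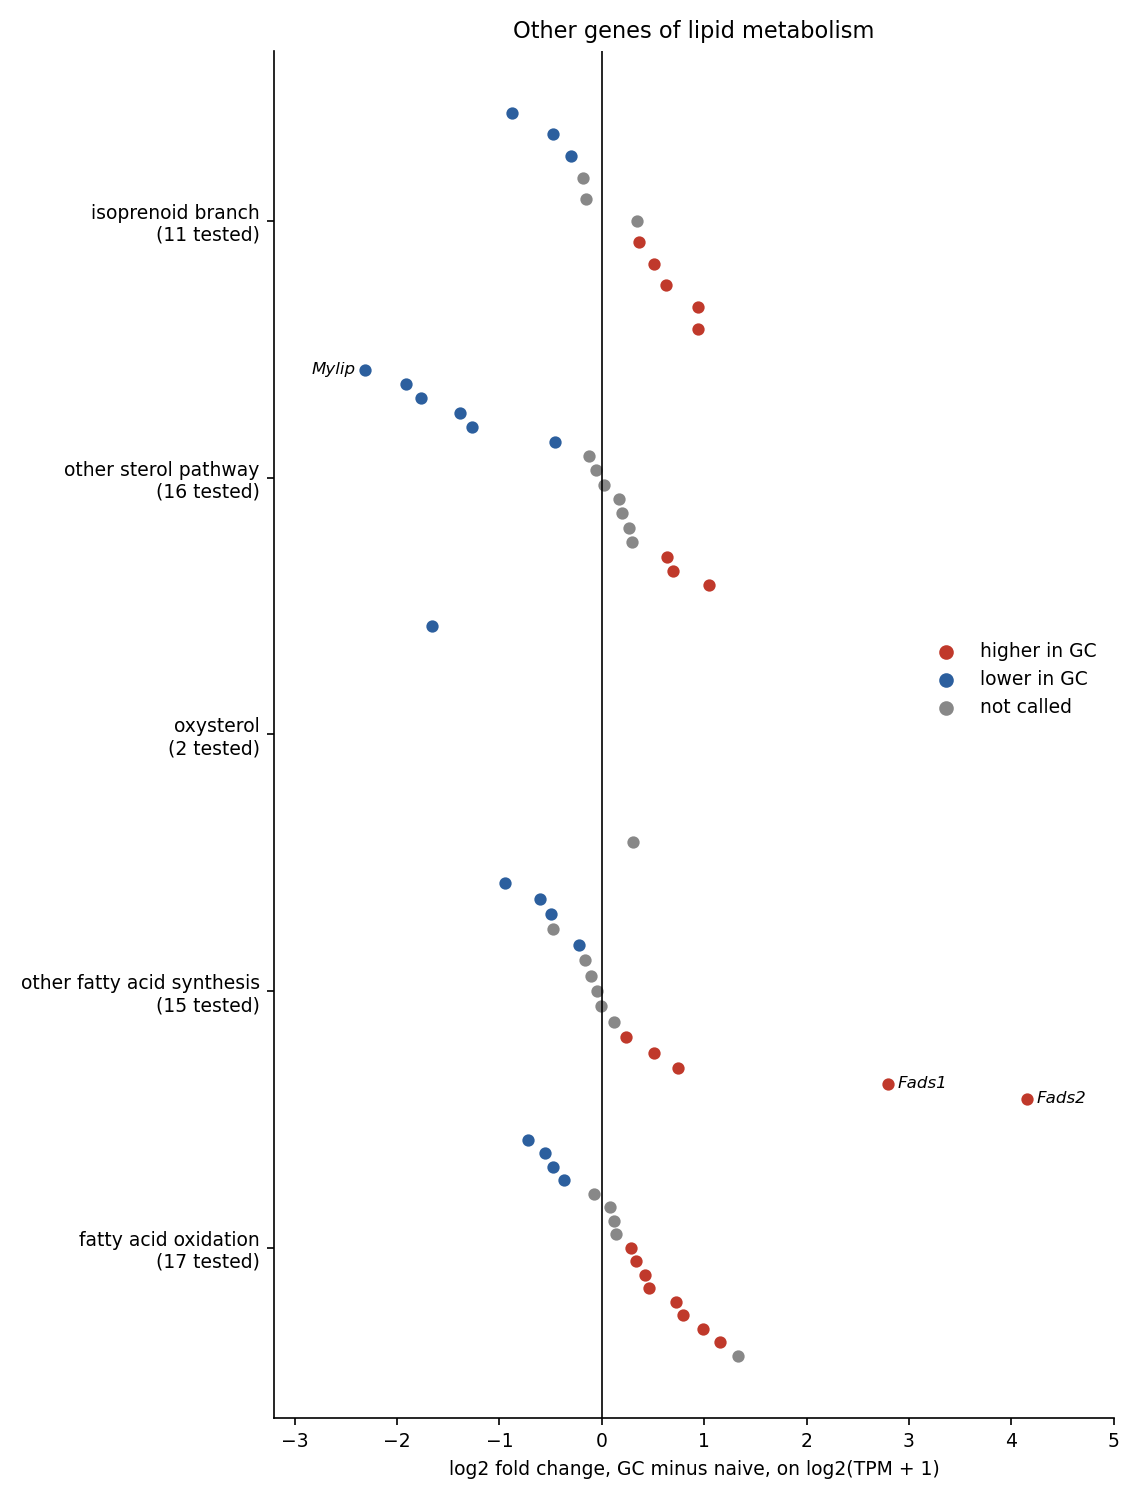
Log2 fold change, GC minus naive on log2(TPM + 1), of each tested gene in 5 other lists of lipid metabolism, in red where called higher in GC, in blue where called lower and in grey where not called. Called genes with an absolute value of at least 2 are named, and Fads2 at 4.16 and Mylip at -2.31 mark the ends.

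Between pools of a population, the members had a median coefficient of variation of 8.66% in GC and 7.23% in naive B cells, and at most 31.2%, in Mvk. All 9 higher calls and 9 of the 10 lower calls were kept in every alternative analysis that tested the gene, the exception being Mvk. Elovl6 fell below the filter of 5 TPM in one of these and had no test there.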

How the data were processed

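RNA was sequenced from 3 GC and 3 naive B cell pools. The authors trimmed adapters (cutadapt 1.9), ran RSEM 1.2.25 against a mouse transcriptome (NCBIm38 v75) and deposited FPKM per gene and pool, rounded to 2 decimals; edgeR is named in the submitters' notes without a role. FPKM was rescaled to TPM (each column summing to 1000000), and log2(TPM + 1) was fitted with limma 3.58.1 (eBayes with trend, group only) in R 4.3.3; Python 3.11.15 was used otherwise. RSEM divides reads between near-identical genes by a model. The fit was tested on simulated data. Coordinates are RefSeq GRCm38.p6; exon overlaps and transcript words came from GENCODE vM1.

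The members and lists were chosen with earlier results of these data known. Values of every pool are given for called members with an absolute log2 fold change of at least 1, for preset members of control, synthesis and efflux, and otherwise for chosen genes of the comparison lists; of each such list up to 3 called genes per direction are named. Some of these genes are not reported here. Pools sharing a number were not treated as pairs, since neither labels nor methods say that they share mice. Their deviations had correlations of 0.0225 to 0.083. Alternatives changed the pseudocount, filter, unit, scaling, variance model, replicate block and pools; a correction for GC content and length (11031 genes) and the shortened motifs were chosen after seeing the data.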

Additional observations from a re-analysis of the deposited data

How the results depend on the processing

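Over the alternatives, 8 to 10 members were called higher and 9 to 12 lower in GC B cells, and with the replicate block 9 were called higher and 9 lower. With that block Mvk was no longer called (adjusted p = 0.0569 in limma), and no other member changed its call. Whether same-numbered pools came from the same mice is not stated, and the deviations of each GC pool correlated best with those of the naive pool of its own number. Of 479 member log2 fold changes recomputed, 22 changed sign, all in members that were not called. Hsd17b7 had -0.0215 on FPKM as deposited, -0.0356 with quantile normalization, -0.0358 with median-ratio scaling, -0.0561 with the correction for GC content and length (with or without the replicate block), and between -0.0975 and 0.1272 with 1 pool left out. Dhcr7 had -0.0172 on FPKM, -0.0200 with quantile normalization, -0.0317 with median-ratio scaling and -0.0227 to 0.1096 with 1 pool left out. Fasn had -0.0442 on FPKM, -0.0589 with median-ratio scaling, -0.1402 with quantile normalization (adjusted p = 0.0239, a lower call), and -0.0347 to 0.0369 with 1 pool left out, but 0.1090 with the GC content and length correction (adjusted p = 0.0489, a higher call). Srebf1 had -0.1215 to 0.0719 with 1 pool left out and 0.0922 with the GC content and length correction, with or without the replicate block. Quantile normalization moved the fatty acid sum from 0.489 to 0.446 times the naive level. The lower calls among other fatty acid synthesis genes went from 4 to 7 with quantile normalization, and to 6 on FPKM and with median-ratio scaling. The causes were not tested.

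Of the scalings, quantile normalization moved the median of all genes the most, with a shift of -0.0843 on the log2 scale. Among all genes tested, 4540 were called higher and 3852 lower in the main fit, and 4308 and 4198 on FPKM. These counts were 4243 and 4291 with median-ratio scaling, and 4080 and 4450 with quantile normalization. The excess of higher over lower calls among all genes thus depended on the scaling. With 3 pools per group, small differences are bounded only by the intervals given. Depth is an estimate, since the files hold no counts, and strand was not stated.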
